A study of Sus scrofa domesticus with 4 samples.

Results

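The genes described here encode proteins of the spliceosome and related RNA-binding proteins, measured in the anterior pituitary of early pregnant and cyclic pigs. They were chosen by symbol, as every gene on the array whose RefSeq name begins with SNRP, SF3, SRSF, LSM, PRPF, HNRNP, U2AF, RBM, DDX or DHX, with DDX58 and DDX60 left out. The array carried 33 such genes on 95 probes, and 30 genes, on 92 probes, were kept because a probe stood clear of background in 4 or more of the 8 channels. They stand among 2409 genes with a symbol and 18887 features tested in all. DHX32 and RBM47 were above background in 0 channels and LSMEM2, a membrane protein whose symbol matches the prefix by spelling alone, in 1 channel. The kept genes were well above background in all 8 channels, so the threshold separated none of them narrowly. No gene with the prefix U2AF was among those named here, and SF3B1 was the 1 gene with the prefix SF3.

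Pre-mRNA splicing removes introns in the nucleus. Small nuclear ribonucleoprotein particles, each an RNA wrapped by a ring of Sm or LSm proteins and joined by particle-specific proteins, recognise the splice sites and the branch point and assemble with the Prp19 complex into the catalytic spliceosome. RNA helicases of the DEAD (DDX) and DEAH (DHX) families drive the rearrangements between its stages. SR proteins mostly promote, and hnRNP proteins often oppose, the use of nearby splice sites, and other RNA-binding proteins act on splicing, export, stability or translation of messages.

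The study compared the gland around the time of conceptus attachment with matching days in cyclic females. The animals were mature gilts, females that had not farrowed, from crosses of Large White and Polish Landrace, all killed on days 15 to 16. The pregnant group held 4 animals, mated naturally and found to carry conceptuses, and the cyclic group held 4 animals staged by the look of their ovaries. RNA of 1 pregnant and 1 cyclic animal was hybridised together on each of 4 two-colour Agilent arrays, so an array was 1 pair, and values are log2 ratios of pregnant over cyclic. The label fields put pregnant RNA in the dye Cy3 on arrays 1 and 3 and in Cy5 on arrays 2 and 4, and they were followed. The text of the labelling protocol names a single orientation, which would turn arrays 2 and 4. The authors' value table equalled the scanner's ratios within 0.001 for 43553 of 43553 singly spotted probes on each array, with arrays 1 and 3 turned, and thus follows the label fields. All directions below rest on them.

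Between 50.4% and 66.5% of spots were well above background in a channel, no spot was saturated (0 on each array), and all arrays lay on 1 slide scanned in 1 run. The number of arrays limits the precision. The 7 hormone genes that define the secretory cells (PRL, GH1, POMC, CGA, LHB, FSHB and TSHB) were well above background on all arrays in both groups. OXT, which marks the neighbouring posterior lobe, was too. Hormone ratios swung between arrays, with TSHB at -1.67, 4.48, -3.02 and -4.20, GH1 at -2.50 and FSHB at 2.53 on array 3. Of 26 marker genes measured of 42 listed for pituitary and other cell types, 6 were above 0 and 20 below. Of these, 2 were at an unadjusted p under 0.05 in limma's fit, LHB at -0.42 and the B cell gene CD79A at -0.69. Of the 5 gonadotrope markers 4 were below 0, LHB among them, and FSHB alone lay above, at 0.42. The other lymphocyte gene measured, the T cell gene CD3E, stood at 0.13. The part of these markers in the results below was not tested.

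As a group the splicing and RNA-binding genes lay near a ratio of 1, and none passed the adjusted test. The median of the 30 genes was -0.05, beside -0.02 over all features, and 13 of the 30 had an estimate above 0, beside 45.7% of all features. For 26 of the 30 the fold was under 1.2, as it was for 82.3% of all features. DDX46, SNRPD3 and RBMX2 were higher and DDX39B was lower in the pregnant gland with a fold of 1.2 or more and an unadjusted p under 0.05, a looser rule than the adjusted test. These 4 of 30 (13.3%) compare with 7.02% of all features (2.93% higher and 4.09% lower) and with 8.14% of features with a gene symbol. Whether 4 of 30 differs from these shares was not tested. The p alone, without the fold, was met by the same 4 genes and by 7.22% of all features. None passed limma's Benjamini-Hochberg adjustment over all features, which called 0% of them (0 of 18887), and the smallest adjusted p among the 30 genes was 0.647. The count of 4 was 2 without array 1, 2 without array 2 and 2 when arrays were centred on their medians instead of by loess, where DDX46 and SNRPD3 were left each time. It stayed 4 with other genes without array 3 (DDX46, SNRPD3, SRSF6 and SRSF9) and without array 4 (DDX46, SNRPD3, DDX39B and PRPF19). By the same rule the share of all features was 3.38%, 3.27%, 8.86% and 11.6% without arrays 1 to 4 in turn. With median centring it was 5.47%. The ratio had 1 sign on all 4 arrays for 9 of the 30 genes, beside 13.8% of all features. It was above 0 on all arrays for DDX46, HNRNPH3, RBMX2, SNRPC and SNRPD3 (5 of 30, beside 6.41%) and below 0 for DDX39B, LSM2, RBM4B and SF3B1 (4 of 30, beside 7.41%). In bulk tissue a lower level in each cell and fewer cells that carry the message cannot be told apart.

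**Figure D1:**
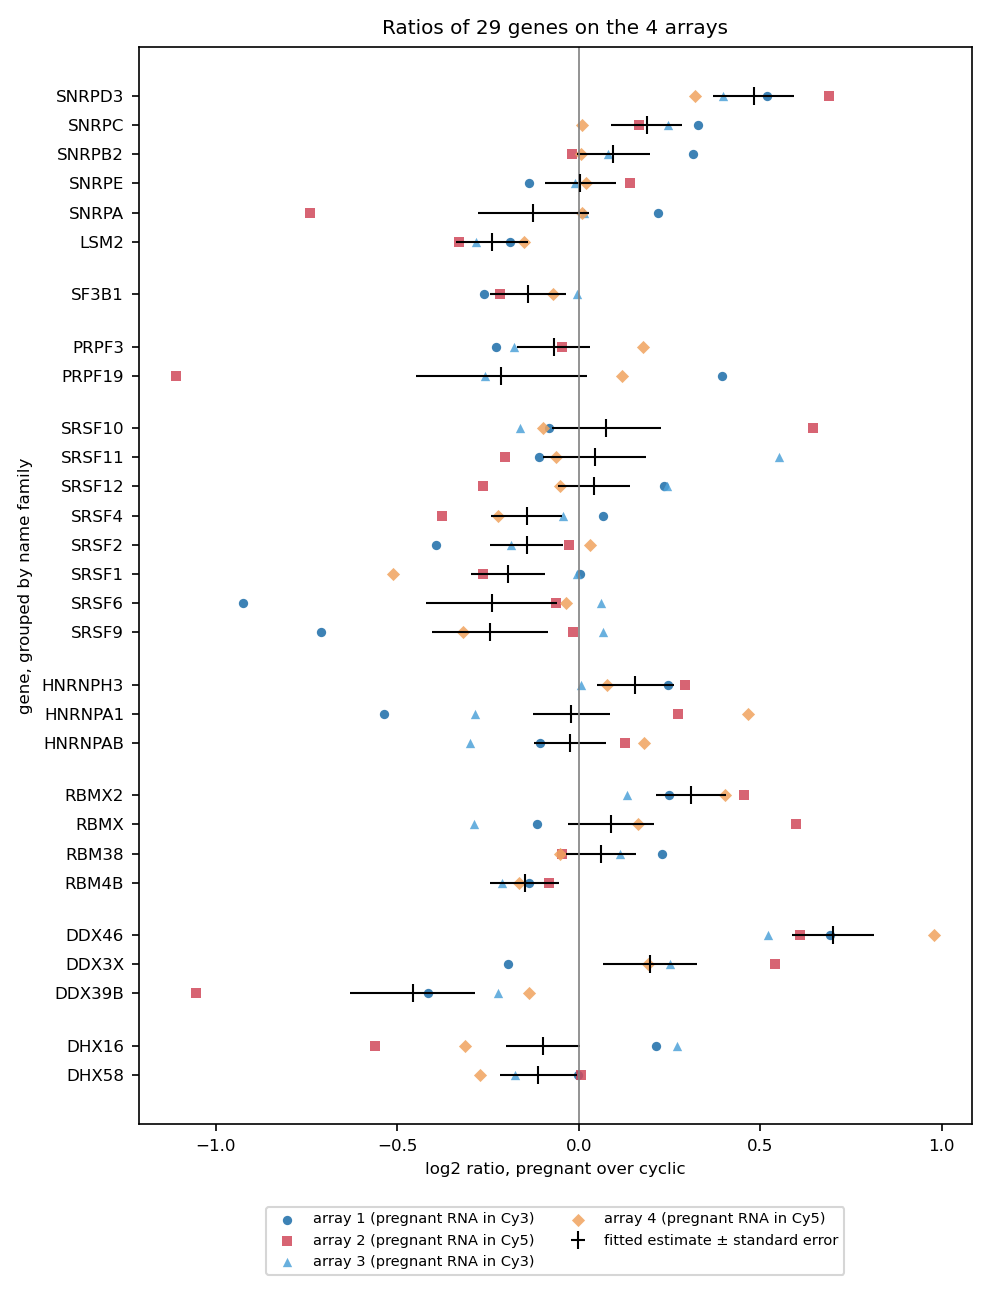
Log2 ratios of pregnant over cyclic (horizontal axis) for 29 of the 30 genes, grouped by name family (vertical axis). Coloured symbols are single arrays, with the dye of the pregnant RNA in the key, and black marks are limma estimates with their standard errors; DDX46 and SNRPD3 lie right of 0 on all 4 arrays, DDX39B and LSM2 left of 0, and most other genes straddle 0.

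The arrays differed in how widely these genes scattered. The standard deviation of the 30 ratios was 0.36 on array 1, 0.46 on array 2, 0.24 on array 3 and 0.28 on array 4, beside 0.40, 0.50, 0.35 and 0.33 over all features. The median ratio of the 30 genes was -0.09 on array 1, -0.04 on array 2, 0.00017 on array 3 and 0.01 on array 4. Array 2 thus carried the widest scatter among these genes and over the whole table. The standard error of a typical gene of the group was 0.11, near the 0.12 of all features, and their brightness was high, with a median at the 85.5th percentile of mean intensity. Features within 0.5 log2 units of a gene's brightness had array medians between -0.08 and 0.09 for every one of the 30 genes. Loess sets such medians near 0 on each array, so they do not show how often a feature of like brightness reaches a given ratio. The typical standard deviation of such a feature's ratios over the 4 arrays was between 0.26 and 0.32.

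Among the Sm and LSm proteins and their particle partners, SNRPD3 stood highest and LSM2 lowest. SNRPD3 encodes SmD3, a subunit of the heptameric ring around the U1, U2, U4 and U5 RNAs. On arrays 1 to 4 its log2 ratio was 0.52, 0.69, 0.40 and 0.32. Every array lay above 0, by 1.40-fold on average, and the estimate was 0.48 ± 0.11 (limma standard error over 4 arrays, 95% interval 0.20 to 0.77, unadjusted p = 0.00704, adjusted p = 0.647). It ranked at the 98.9th percentile of all estimates.

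SNRPE, the SmE subunit of that ring, had ratios of -0.14, 0.14, -0.01 and 0.02. They fell on both sides of 0, and the estimate was 0.0037 ± 0.098, with a 95% interval from -0.25 to 0.25. The interval of SNRPE overlaps that of SNRPD3, and a difference between these 2 subunits was not tested.

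SNRPC, the protein C of the U1 particle, which helps to recognise the 5′ splice site, had ratios of 0.33, 0.17, 0.25 and 0.01. It was above 0 on 4 of 4 arrays at an estimate of 0.19 ± 0.098, short of the threshold (limma, unadjusted p = 0.112). SNRPB2, the U2 particle protein U2B″, stood at 0.10 ± 0.10, with array 1 highest at 0.31 and the others between -0.02 and 0.08. SNRPA, the protein A of the U1 particle, stood at -0.13 ± 0.15, where array 2 alone was low at -0.74 and array 1 was at 0.22.

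LSM2, a subunit of the LSm ring that binds the U6 RNA in the nucleus and decaying messages in the cytoplasm, went the other way. Its ratios were -0.19, -0.33, -0.28 and -0.15 on arrays 1 to 4. They were below 0 on 4 of 4 arrays and close together, at an estimate of -0.24 ± 0.099 that missed the unadjusted threshold (limma, unadjusted p = 0.0599). Over these 6 genes the median was 0.05, with 4 above 0 and 2 below.

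SF3B1, the U2 particle subunit that clamps the branch point, had ratios of -0.26, -0.22, -0.01 and -0.07. All 4 lay below 0, near it on arrays 3 and 4, and the estimate was -0.14 ± 0.10 (95% interval -0.41 to 0.13). Of its 8 probes 6 were below 0, between -0.18 and -0.12, while the dimmest 2 were above 0 at 0.12 and 0.21.

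The 3 PRPF genes all had estimates below 0, and none was at an unadjusted p under 0.05 (0 of 3). PRPF3, a protein of the U4/U6 particle, stood at -0.07 ± 0.10, with array 4 alone above 0 at 0.18. PRPF19, the ubiquitin ligase that gives the Prp19 complex its name, had ratios of 0.39, -1.11, -0.26 and 0.12. Arrays 1 and 4 were above 0 and array 2 was far below it, so that the estimate of -0.21 ± 0.24 was 0.09 without array 2 and -0.52 without array 4, where it met the looser rule (limma, unadjusted p = 0.0498). Its second, dimmer probe had the same low array 2, at -0.46, and an estimate of -0.01.

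The 8 SR protein genes had the lowest median of the families with 4 or more genes, at -0.14, with 3 above 0 and 5 below. At an unadjusted p under 0.05 there were 0 of 8, and without array 3 there were SRSF6 and SRSF9. That median was -0.02 without array 1 and -0.04 when each gene's probes were averaged. SRSF9, an SR protein with a short RS domain, had ratios of -0.71, -0.01, 0.07 and -0.32, and stood at -0.24 ± 0.16. Array 1 was the lowest, and the estimate was -0.05 without it and -0.44 without array 3 (limma, unadjusted p = 0.0385). SRSF6 had ratios of -0.92, -0.06, 0.06 and -0.03. Array 1 stood alone here too, and the estimate of -0.24 ± 0.18 was 0.01 without it and -0.49 without array 3 (limma, unadjusted p = 0.0210). In single animals, the normalized log2 intensity of SRSF6 was 9.89 in the pregnant and 10.8 in the cyclic animal of array 1, and between 11.8 and 12.2 in the other 6. Both animals of that array were thus low for this gene, the pregnant one more so.

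SRSF1, the founding member of the family, had ratios of 0.0044, -0.26, -0.01 and -0.51. Only the arrays with pregnant RNA in Cy5, arrays 2 and 4, were clearly below 0, and the estimate was -0.19 ± 0.10 (limma, unadjusted p = 0.112). SRSF2, also known as SC35, stood at -0.14 ± 0.0998 and SRSF4 at -0.14 ± 0.0985, each below 0 on 3 of 4 arrays. SRSF11 stood at 0.04 ± 0.14, where array 3 was high at 0.55 and the others were between -0.20 and -0.06. SRSF10, a splicing repressor when it is dephosphorylated, had ratios of -0.08, 0.65, -0.16 and -0.10, so its estimate of 0.08 ± 0.15 came from array 2 and was -0.11 without it. SRSF12 stood at 0.04 ± 0.0997, with arrays 1 and 3 at 0.24 each and arrays 2 and 4 below 0.

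Of the 3 hnRNP genes none was at an unadjusted p under 0.05 (0 of 3), and their median was -0.02. HNRNPA1, an abundant splicing repressor with near-identical retrocopies in mammalian genomes that a probe may not tell apart, had ratios of -0.54, 0.27, -0.29 and 0.47. They were below 0 where pregnant RNA was in Cy3 and above 0 where it was in Cy5, and the estimate was -0.02 ± 0.11. HNRNPAB showed the same alternation on a smaller scale, at -0.11, 0.13, -0.30 and 0.18, with an estimate of -0.03 ± 0.099. HNRNPH3, which binds G-rich RNA, had ratios of 0.25, 0.29, 0.01 and 0.08. It was above 0 on 4 of 4 arrays at 0.16 ± 0.11, and its 3 other probes gave larger estimates, of 0.36, 0.31 and 0.48.

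Among the RBM genes RBMX2 was highest. It is a component of the activated spliceosome and of the small complex that retains unspliced messages in the nucleus. Its ratios were 0.25, 0.45, 0.13 and 0.40. All 4 were above 0, at an estimate of 0.31 ± 0.096 or 1.24-fold (95% interval 0.07 to 0.55, limma, unadjusted p = 0.0223, adjusted p = 0.647). With background parameters from all spots it stood at 0.11. With any 1 array left out its estimate lay between 0.28 and 0.34, and limma's unadjusted p between 0.0622 and 0.120.

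RBMX, the X-linked hnRNP G protein, which also has retrocopies, had ratios of -0.12, 0.60, -0.29 and 0.16, on both sides of 0, and stood at 0.09 ± 0.12. RBM38, which binds and stabilises the messages of p53 targets, stood at 0.06 ± 0.096, with 2 arrays on each side of 0. RBM4B, a paralogue of the splicing and translation regulator RBM4, had ratios of -0.14, -0.08, -0.21 and -0.16. It was below 0 on 4 of 4 arrays with little spread, at -0.15 ± 0.096 (limma, unadjusted p = 0.179).

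The DDX helicases held both the highest and the lowest estimate of the 30 genes. DDX46, the mammalian Prp5, helps the U2 particle to join the branch point. On arrays 1 to 4 its ratio was 0.69, 0.61, 0.52 and 0.98. No array was below 0.52, and the estimate was 0.70 ± 0.11, a fold of 1.63 (95% interval 0.41 to 0.99, limma, unadjusted p = 0.00142, adjusted p = 0.647). It lay at the 99.6th percentile of all estimates and ranked 34th by p among all features. DDX46 had 1 probe on the array. With background parameters estimated from all spots its estimate was 0.34 (limma, unadjusted p = 0.00209).

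DDX39B, also called UAP56, acts in the same early step of U2 recruitment and in the export of spliced messages. Its ratios were -0.42, -1.05, -0.22 and -0.14. All were below 0 and array 2 was the lowest, so that the estimate of -0.46 ± 0.17 (fold 1.37, limma, unadjusted p = 0.0442, adjusted p = 0.647) was -0.23 without array 2 and -0.69 without array 4. Its unadjusted p was 0.124, 0.153 and 0.0700 without arrays 1, 2 and 3.

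DDX3X, a helicase of translation initiation with a similar Y-linked homologue that these females lack, had ratios of -0.20, 0.54, 0.25 and 0.19. Array 1 went against the other 3, and the estimate was 0.20 ± 0.13 (limma, unadjusted p = 0.185). DHX16, the mammalian Prp2 that readies the spliceosome for catalysis, had ratios of 0.21, -0.56, 0.27 and -0.31, alternating with the dye, and stood at -0.10 ± 0.10. DHX58, known as LGP2, is an antiviral RNA sensor rather than a splicing factor and is counted by its symbol. Its ratios were -0.0021, 0.01, -0.18 and -0.27, at -0.11 ± 0.11.

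Levels in the single animals separated the groups for a few genes. After normalization between arrays, DDX46 had log2 intensities of 9.89, 9.90, 9.97 and 9.73 in the pregnant animals of arrays 1 to 4. In the cyclic animals it was at 9.20, 9.29, 9.45 and 8.75. All 4 pregnant animals exceeded all 4 cyclic ones, and the cyclic animal of array 4 was the lowest. SNRPD3 was at 13.74, 13.84, 13.79 and 14.04 in pregnant animals and at 13.22, 13.15, 13.39 and 13.72 in cyclic animals. The groups did not overlap but nearly met, between the pregnant animal of array 1 and the cyclic animal of array 4, which share no array. RBMX2 was between 9.55 and 9.84 in pregnant animals and between 9.34 and 9.44 in cyclic ones.

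LSM2 was between 9.99 and 10.12 in pregnant and between 10.25 and 10.34 in cyclic animals, with standard deviations of 0.06 and 0.04 over the 4 animals of each group. DDX39B did overlap, with 12.35 to 12.90 in pregnant and 12.86 to 13.40 in cyclic animals, where the pregnant animal of array 2 was the lowest. Levels did not overlap for these 4 of the 30 genes, 3 with pregnant above and 1 with cyclic above, beside 1.79% of all features and 2.70% of features with a gene symbol. That count was 2 with background parameters from all spots, where LSM2 and DDX39B were the genes apart, and 0 when arrays were centred on their medians. With each gene's probes averaged it was 5, where SNRPD3 overlapped and HNRNPH3 and DDX39B were apart beside DDX46, RBMX2 and LSM2. It was 5 or 6 with any 1 array left out, where fewer animals had to be apart. The share of all features was not computed under these other settings, so the counts there stand without a background.

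**Figure D2:**
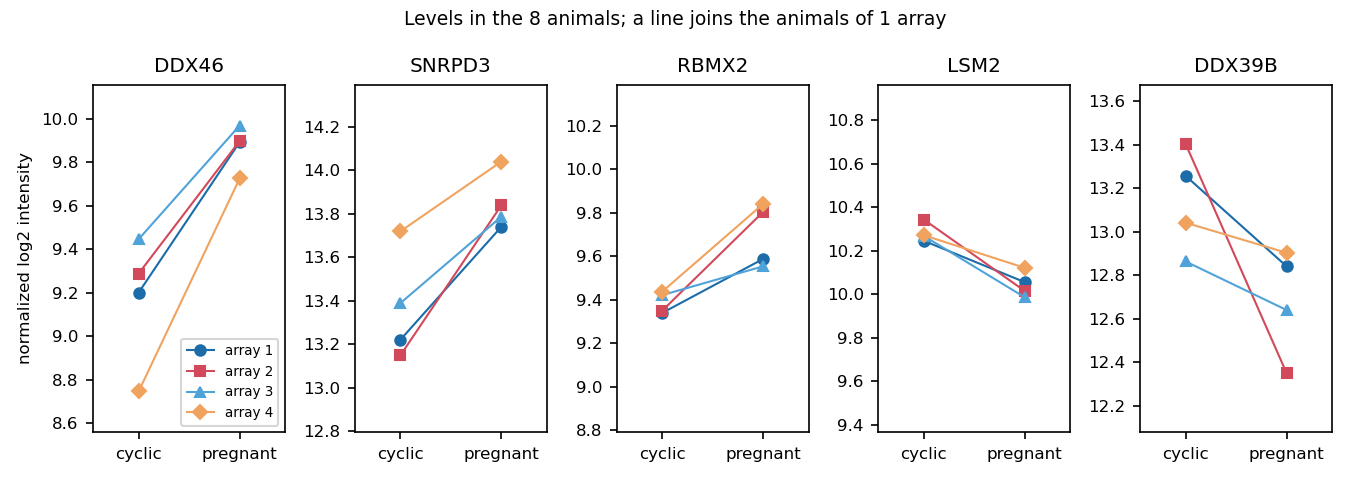
Normalized log2 intensity (vertical axis, the same span of values in each panel) of 5 genes in the 4 cyclic and the 4 pregnant animals, with a line joining the animals of 1 array. DDX46, SNRPD3 and RBMX2 are higher in every pregnant animal than in any cyclic one, LSM2 is lower, and DDX39B overlaps between 12.86 and 12.90.

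Several genes were read by more than 1 probe, which gives a second reading of the same RNA on the same arrays, not a further replicate. Of the 21 genes with at least 2 kept probes, all probes shared 1 sign in 11 and differed in sign in 10. SNRPD3 had 8 probes, all above 0, with estimates between 0.39 and 0.58 and unadjusted p between 0.00326 and 0.0155 in limma's fit over 25196 probes. Its probes ranged in mean log2 intensity from 11.02 to 13.61, and bright and dim probes gave like values. The 4 probes of DDX39B were all below 0, between -0.46 and -0.24. The brightest 2 had array 2 at -1.05 and -1.0001, whereas the dimmer 2 had it at -0.59 and -0.31.

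The low array 1 of SRSF6 was seen on all 3 of its probes, at -0.92, -0.74 and -0.97, and that of SRSF9 on both of its probes, at -0.71 and -0.80. The high array 3 of SRSF11, at 0.55 on its brightest probe, was not seen on the rest. Its 8 other probes had array 3 between -0.17 and 0.32, and 7 of the 8 had an estimate above 0. SRSF1 was split by brightness, with its brightest 2 probes at -0.19 and -0.20 and its dimmest 2 at 0.12 and 0.02. Over all 92 probes of the 30 genes, 49 had an estimate above 0. At an unadjusted p under 0.05 were 11 higher, 8 of them of SNRPD3, and 3 lower, all of DDX39B, that is 11 and 3 of 92, beside 3.43% and 4.59% of all probes fitted.

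**Figure D3:**
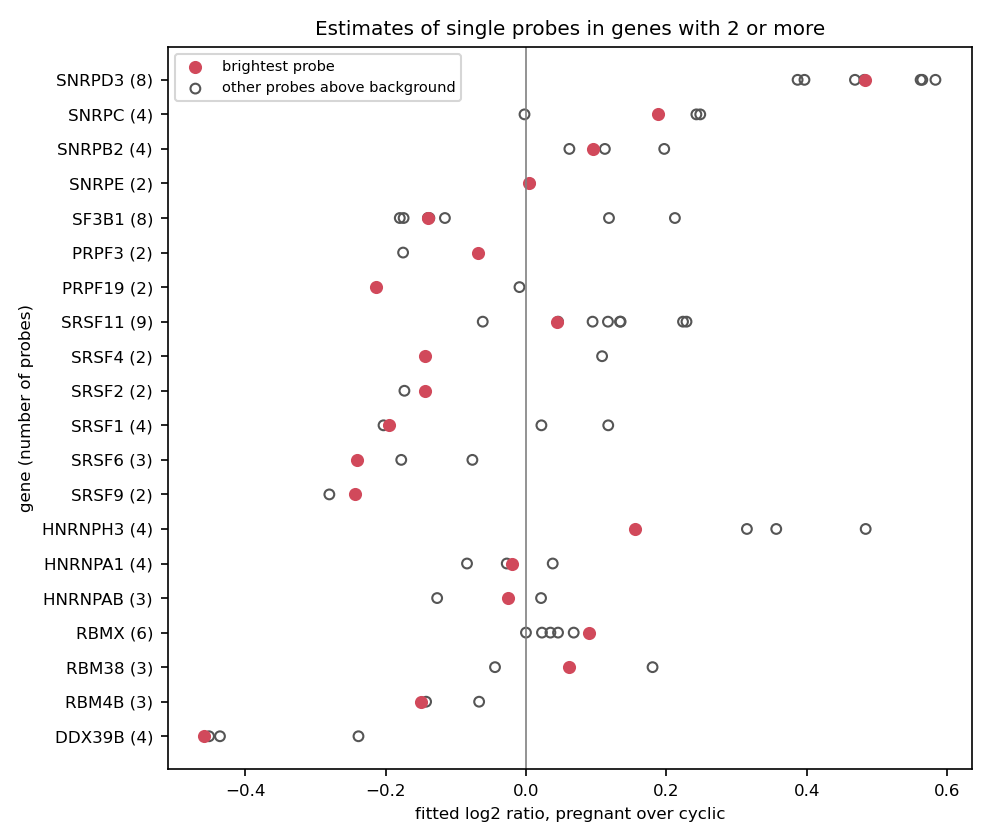
Fitted log2 ratio (horizontal axis) of every probe above background for 20 of the 21 genes with 2 or more probes (vertical axis, number of probes in brackets). The filled point is the brightest probe, which stands for the gene; the 8 probes of SNRPD3 lie between 0.39 and 0.58, and the 4 of DDX39B between -0.46 and -0.24.

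A gene-specific dye effect was fitted beside the pregnancy effect, because some genes of the group read higher in 1 dye whatever the animal. HNRNPA1 had the largest such effect among them, 0.39 log2 units red over green, and red exceeded green on 4 of 4 arrays for HNRNPA1, HNRNPAB, RBMX and SNRPE. Green exceeded red on 4 of 4 arrays for DHX16, RBM38 and SRSF12, with DHX16 at -0.34. These 4 and 3 of 30 genes (13.3% and 10.0%) compare with 11.9% and 8.09% of all features, shares near the background. The dye effect was 0.09 for DDX46 and 0.02 for SNRPD3, beside pregnancy estimates of 0.70 and 0.48. It was 0.12 for RBMX2 and -0.14 for DDX39B, beside pregnancy estimates of 0.31 and -0.46.

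If all arrays had had the orientation of the protocol text, the estimate of a gene would be its dye effect with the sign turned. DDX46 would stand at -0.09, SNRPD3 at -0.02, RBMX2 at -0.12, DDX39B at 0.14 and LSM2 at 0.0016. The genes that meet the looser rule would be DHX16, HNRNPA1 and RBMX, beside 8.24% of all features. All statements above on DDX46, SNRPD3, RBMX2, DDX39B and LSM2 therefore hold for the label fields only.

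**Figure D4:**
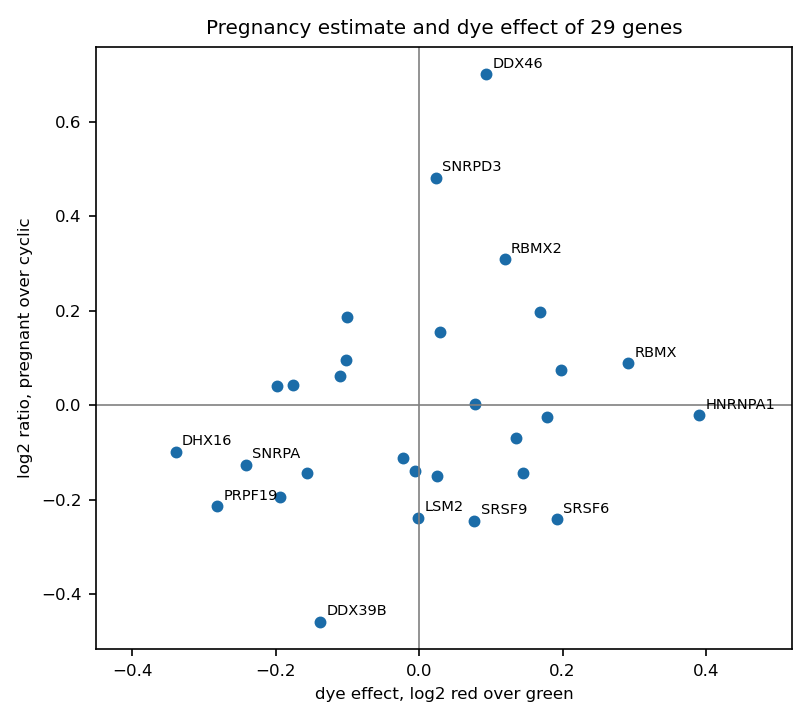
Estimate of pregnant over cyclic (vertical axis, log2) against the gene-specific dye effect (horizontal axis, log2 red over green) for 29 of the 30 genes, 1 point each. DDX46 and SNRPD3 lie high with dye effects of 0.09 and 0.02, while HNRNPA1 and DHX16 lie far to the sides with pregnancy estimates of -0.02 and -0.10.

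Other splicing genes outside these prefixes were read from 2 lists, chosen with earlier results of these data known. Their values beside those of all features are therefore a description only. Of 56 other spliceosome proteins 5 were measured with a symbol, and of 43 splicing regulators and their kinases 9 were. The spliceosome proteins had a median of 0.15, with 4 of 5 above 0 and 1 at an unadjusted p under 0.05, and the regulators a median of 0.02, with 5 of 9 above 0 and 0 at that threshold. Over all features the median was -0.02, with 45.7% above 0 and 7.22% at that threshold. BCAS2, a core subunit of the Prp19 complex, was that 1 gene. Its ratios were 0.13, 0.45, 0.28 and 0.74. All 4 were above 0, and the estimate was 0.40 ± 0.11 (limma, unadjusted p = 0.0125, adjusted p = 0.647). Its 11 probes all lay between 0.30 and 0.45, whereas the probes of PRPF19, of the same complex, were at -0.21 and -0.01. Without array 3 or without array 4 BCAS2 no longer met the threshold, while its estimate lay between 0.33 and 0.47 with any 1 array left out.

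EIF4A3, the helicase of the exon junction complex, stood at 0.15 ± 0.097, and SRRM2, a nuclear speckle scaffold, at -0.08 ± 0.13. SNU13 stood at 0.08 on its brightest probe, whereas its other probes were at -0.12 and -0.08, so its place above 0 rests on that probe. Among the regulators SRPK1, a kinase of SR proteins, had ratios of 0.36, 0.27, 0.13 and 0.22 and stood at 0.25 ± 0.10, with an unadjusted p of 0.0573 in limma's fit, although its 1 other probe was at -0.04. PTBP3, a paralogue of the polypyrimidine tract binding protein, had ratios of 0.55, -1.03, 0.10 and -0.52, with 2 arrays on each side of 0. TRA2A stood at 0.14 on its brightest probe, whereas its other probe was at 0.54 (limma fit over probes, unadjusted p = 0.00320). The genes of this paragraph were named after their values were seen.

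The estimates of the leading genes were followed through 14 other ways of preparing or fitting the values. DDX46 and SNRPD3 were above 0 and at an unadjusted p under 0.05 in 13 of 14, the exception being the single dye orientation. RBMX2 met that threshold in 7 of 14, DDX39B in 8 and LSM2 in 3, each with its reported sign in 13. Some of the 14 could change only the p of these genes, since the estimate stayed identical. Those were the fit without a dye term, the separate-channel fit, the filter for all 8 channels and no filter on dim probes. Averaging probes left DDX46, RBMX2 and LSM2 unchanged too, as each had 1 probe. The lowest adjusted p of DDX46 was 0.118 and that of SNRPD3 0.200, both in limma's separate-channel fit.

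**Figure D5:**
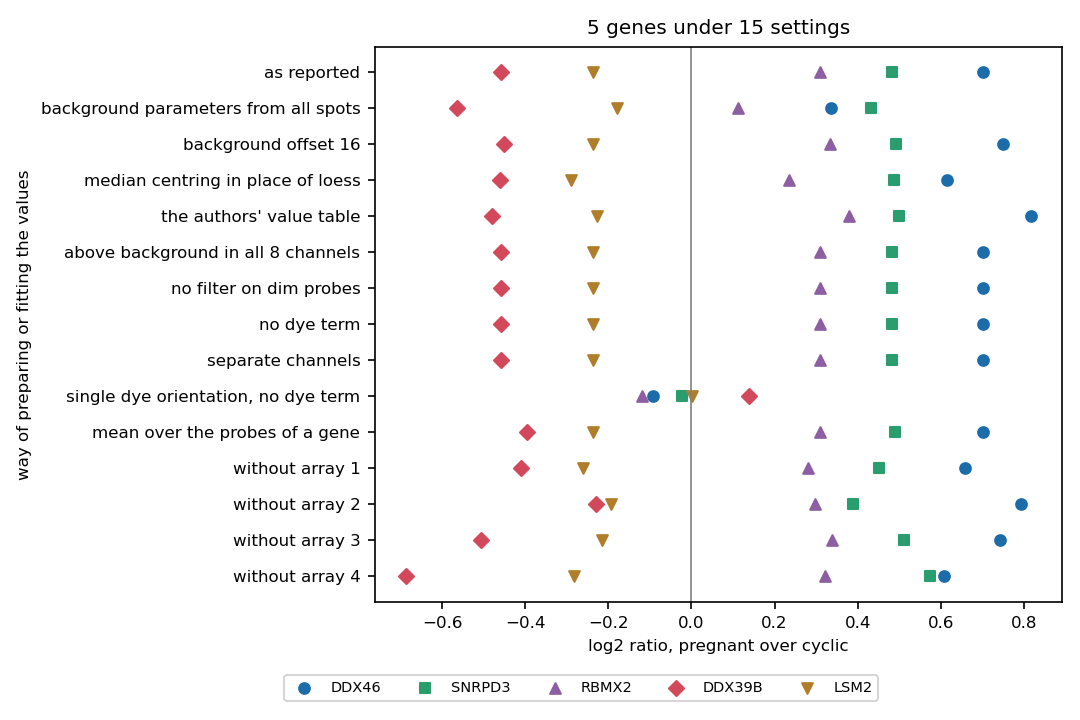
Log2 ratio of pregnant over cyclic (horizontal axis) of 5 genes as reported and under 14 other settings (vertical axis), 1 symbol per gene. DDX46 falls to 0.34 with background parameters from all spots, DDX39B moves with arrays 2 and 4, and under the single dye orientation all 5 lie between -0.12 and 0.14.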

How the data were processed

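RNA integrity scores ran from 7.5 to 10 according to the labels. The deposited scanner files hold median spot and local background intensity in 2 channels, per the file headers, written by version 10.7.3.1 of Agilent's Feature Extraction, with a log10 ratio of its processed signals. The authors' deposited value table holds log2 ratios, which matched the scanner's processed signals with no further centring. Its medians were 0.150, -0.0102, 0.0650 and -0.0726 on arrays 1 to 4.

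Background was corrected in R 4.3.3 with limma 3.58.1 by normexp with an offset of 50 on median intensities, its parameters estimated without spots marked as outliers in that channel (377 to 3480 of 45220). Ratios were normalized by loess (span 0.3), with 1417 control spots at weight 0, and 26 to 63 outlier spots on an array were dropped. Repeated spots were averaged per probe. Probes clear of background in 4 or more of 8 channels were kept (25203 of 43603) and named by RefSeq accession through the Sscrofa11.1 names. The brightest probe stood for a gene or identifier. All ratios were set to run as pregnant over cyclic.

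limma's lmFit and eBayes fitted pregnancy beside a dye effect over 18887 features, with Benjamini-Hochberg adjustment and a threshold of 0.05. Levels per animal came from the same values after quantile normalization of mean intensity between arrays. No probe or protein sequence was used here. Genes named are those at an unadjusted p under 0.05 with 1 sign on all arrays, the brightest, highest and lowest of each family, and list genes at that p; the other kept genes are given too, except 1 that is counted but not reported here. Members and lists were chosen with earlier results of these data known. Where nothing says how animals were paired on arrays, p-values measure the spread between these 4 pairs. Data.table (version 1.17.8) and jsonlite 2.0.0 read the files.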

Additional observations from a re-analysis of the deposited data

Results flagged for a closer look

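For 41 results over the 4 arrays (the 30 genes, BCAS2 and group medians), the gap between the highest or lowest array and its nearest neighbour, divided by the range, was set against Dixon's critical value, and chance alone passes it in about 1 of 20 groups. SRSF10 passed it through array 2, at a log2 ratio of 0.645942 against -0.16 to -0.08 on the other arrays (gap over range 0.901). SRSF6 passed it through array 1, at -0.924259 against -0.06 to 0.06 on the others (gap over range 0.876). Both genes were far from any threshold in limma's fit, at unadjusted p of 0.635 and 0.237.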

How the results depend on the processing

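With 4 arrays and 2 residual degrees of freedom the precision is low. Each array holds 1 pregnant and 1 cyclic animal, so the fit of ratios is itself the paired analysis. The count of genes whose levels do not overlap was put through the settings after seeing the data. Of the values that answer a comparison, 246 of the alternatives left them the same and 31 moved them. A count was called the same when it changed by no more than a set factor. A median was called the same when it shifted by less than the standard deviation of its array medians. So the DDX, PRPF, HNRNP and RBM medians each counted as the same in a setting where they changed sign, and some alternatives could not alter an estimate. The tally is thus no measure of stability. The cause was not tested for any move.

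Features at an adjusted p under 0.05 numbered 2 with a background offset of 16 and 3 in the separate-channel fit. Features with a fold of 1.2 or more and an unadjusted p under 0.05 numbered 487 (143 higher, 344 lower) with background parameters from all spots and 1034 (203 higher) with median centring, against 1326 (553 higher), and 617 to 2182 with 1 array left out. Median centring moved the median of all features to -0.0708. Of the 30 genes, 2 met that rule with median centring, beside 5.47% of all features. With 1 array left out 2 to 4 met it, beside 3.27% to 11.6% of all features. The count without overlap was 2 with background parameters from all spots, 0 with median centring, 0 with the single orientation and 5 to 6 with 1 array left out. For these settings the share of all features was not computed.

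Family medians moved with the single orientation, to 0.181 (DHX), -0.0723 (RBM), 0.00534 (SF3B1 alone) and 0.0393 (SRSF). The DDX median changed sign as well, to -0.0935, and so did the PRPF median. SF3B1 was at -0.268 with background parameters from all spots, and the RBM median was at -0.0005. With 1 array left out the HNRNP median ran from -0.0379 to 0.0418 and the PRPF median from -0.184 to 0.000566. The SRSF median was -0.0411 with averaged probes and -0.157 to -0.0220 with 1 array left out. The median of the other spliceosome proteins was 0.0846 with median centring, -0.00935 with the single orientation and 0.0763 with averaged probes, and their count was 0 with the single orientation and 0 to 1 with 1 array left out. Of the 9 splicing regulators 3 were counted with the single orientation, beside 8.24% of all features. The count was 1 each with background parameters from all spots, an offset of 16, the authors' value table and averaged probes. The shares of all features there were 2.58%, 7.67%, 7.83% and 7.14% in turn.

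Under the single orientation these estimates changed sign: DDX46 -0.0935, DDX3X -0.168, DDX39B 0.138, DHX16 0.339, DHX58 0.0226, HNRNPH3 -0.0297, PRPF19 0.282, RBMX2 -0.119, RBMX -0.291, SF3B1 0.00534, SNRPD3 -0.0235, SNRPE -0.0774, SNRPA 0.241, LSM2 0.00162, SRSF10 -0.198, SRSF4 0.156, SRSF1 0.194 and BCAS2 -0.193. With background parameters from all spots DHX16 was at 0.0346, RBMX at -0.0603, SNRPE at -0.110, SNRPA at 0.0229 and SRSF10 at -0.0447. With median centring SRSF10 was at -0.0124 and SRSF12 at -0.0436. With 1 array left out, the range crossed 0 for HNRNPA1 (-0.0829 to 0.0418), HNRNPAB (-0.0729 to 0.0228), PRPF19 (-0.520 to 0.0932), RBMX (-0.0201 to 0.198), SNRPE (-0.0277 to 0.0351), SNRPA (-0.313 to 0.0619), SRSF10 (-0.111 to 0.262), SRSF11 (-0.122 to 0.209), SRSF12 (-0.0119 to 0.0945) and SRSF6 (-0.486 to 0.00598).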
